A study of Mus musculus with 13 samples.

Results

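The Notch pathway was described through 10 of its genes among the 54532 genes of the deposited table, chosen by gene name: the ligands Dll1, Dll3, Dll4, Jag1 and Jag2, the receptors Notch1, Notch2 and Notch3, and the target genes Hes1 and Hey1. All 10 names were found once each. RNA sequencing had been done on 13 mouse small cell lung cancer tumours, flash-frozen at necropsy, with no sort of cells named. The 7 tumours labelled sgKdm6a RPP carried a guide RNA against Kdm6a, the X-linked gene of the histone demethylase KDM6A, and the 6 labelled sgControl RPP carried a control guide in its place. All 13 tumours, controls included, were of the RPP model, in which further guides disrupt the tumour suppressor genes Rb1, Trp53 and Rbl2, and all arose in congenic BL6J mice whose Cas9 is silent until a stop cassette is removed. No tumour was treated. Neither the age of the mice nor what drives removal of the cassette is given in the sources used here. Guide-induced deletions are made separately in each founder cell, so tumours of one genotype need not carry the same alleles. The series asks whether KDM6A controls the subtype of small cell lung cancer.

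Notch signalling passes between touching cells. A ligand of the Delta or Jagged type on one cell pulls on a Notch receptor on the next, proteases then release the intracellular part of the receptor, and this fragment joins the DNA-binding protein RBPJ to switch on targets such as Hes1 and Hey1, which encode repressors of the basic helix-loop-helix class. Dll3 differs from the other ligands: it stays largely inside the cell, does not activate receptors on neighbours and dampens Notch in the cell that makes it. In small cell lung cancer Dll3 is a known surface target on neuroendocrine cells, whereas Notch-active cells with Hes1 are known as a non-neuroendocrine fraction in mouse models. Endothelial cells use Dll4, Jag1, Notch1 and Hey1, and pericytes use Notch3, so a whole tumour mixes several sources of these mRNAs.

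No Notch gene differed between the genotypes past the threshold. Of the 10 genes, 0 passed an adjusted p of 0.05 in edgeR's quasi-likelihood test over 16575 genes, as did 0 of all genes tested (0.0%), and DESeq2 also called 0 of the 10 while it called 65 genes in all (0.411%). Notch2 and Notch3 were the pair of genes with an unadjusted p under 0.05, both with lower levels in sgKdm6a tumours; in that direction the share over all genes was 6.97%, and in either direction 10.2%. Without sgControl replicate 6, 0 of the 10 genes had a lower level at that p (2.79% of all genes). The median log2 fold change of the 10 genes, sgKdm6a over sgControl, was -0.19, against -0.0017 over all genes tested. For 0 of the 10 genes were the groups free of overlap (0.284% of all genes). Among sgKdm6a tumours Dll3 and Notch1 varied more than the other Notch genes, whereas among sgControl tumours Notch1, Jag1 and Hes1 had the largest spread.

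Each tumour had between 16835726 and 22910187 gene counts, at which 3 counts, taken as the detection floor, correspond to between 0.131 and 0.178 CPM, the count scaled to library size; this covers counting error only. The lowest count of any Notch gene in any tumour was 35, for Dll3, so all 10 lay above the floor throughout. Levels below are CPM on library sizes scaled by TMM, unless FPKM (a level per gene length and sequencing depth) is named. Neuroendocrine markers were present in every tumour, with a mean over 11 genes of 7.09 to 8.91 log2 CPM in sgKdm6a and 7.29 to 8.50 log2 CPM in sgControl tumours. The sgControl tumour of replicate 6 stood apart: it was highest of all 13 in 7 of 11 marker lists, those of endothelium, pericytes and smooth muscle, fibroblasts, macrophages, both alveolar types, and T and NK cells. Its neuroendocrine markers summed to 2584 CPM, against 3606 to 14693 CPM in the others. By their mean log2 CPM only sgKdm6a replicate 3 was lower. Without Calca these markers summed to 1634 CPM in sgControl replicate 6, against 3435 to 4792 CPM elsewhere. The 10 endothelial markers summed to 57.4 to 994 CPM in sgKdm6a tumours, against 2346 CPM in that tumour and 299 to 1033 CPM in the other sgControl tumours, sums to which Vwf adds most in many tumours. Without Vwf the other 9 summed to 43.2 to 333 CPM in sgKdm6a tumours, against 1601 CPM in sgControl replicate 6 and 113 to 192 CPM in the other sgControl tumours; of the 333 CPM, in sgKdm6a replicate 1, Tek made up 188 CPM. In a whole tumour, fewer cells of a type and less RNA per cell cannot be told apart. The labels do not name the animals, but 6 of the 7 sgKdm6a tumours carry a title number that one other sgKdm6a tumour carries too. The titles of such tumours differ only in what follows the number, the letters L and R or a running number, which the labels do not explain. Such tumours may be of one animal, and the main test took all 13 as independent. The p-values therefore measure a spread that may be partly within animals. The 4 listed Y-linked genes were above 3 counts in 1 of 7 sgKdm6a tumours, replicate 3, and in 5 of 6 sgControl tumours, all but replicate 4. Presence of Y-linked transcripts thus nearly follows genotype, so a difference between the genotypes can hardly be told apart from one between the sexes. Kdm6a itself had 42.7 to 91.3 CPM in sgKdm6a and 51.7 to 112 CPM in sgControl tumours, with a log2 fold change of -0.14 (edgeR adjusted p = 0.887). That fit took no account of Y-linked transcripts. In tumours that had them, Kdm6a was at 42.7 CPM in sgKdm6a replicate 3 and 51.7 to 76.6 CPM in sgControl tumours. In those that lacked them, it was at 50.9 to 91.3 CPM in sgKdm6a tumours and 112 CPM in sgControl replicate 4. Each class holds only 1 tumour of one genotype, and the difference within it was not tested. Counts over the whole gene need not show a small deletion, so they do not check the labels.

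The upstream sequences of 3 genes are printed because Dll3 and Notch1 were the ligand and the receptor that varied most between sgKdm6a tumours, and Dll1 is an activating ligand whose window shares a motif with that of Dll3. The windows are RefSeq's for GRCm38.p6, from 250 bases before to 50 after an annotated start, read along the gene's strand. All genes but Hes1 and Hey1, 8 of the 10, had such a window, 9 windows in all because Dll1 has more than one start. The Dll3 and Notch1 windows lie inside the gene bounds of the deposited table, whereas the printed Dll1 window lies outside them. The other Dll1 window (chr17:15375774-15376073) lies inside these bounds, lacks the shared motif and is not printed. Capitals mark CAGCTG, an E-box of the kind that basic helix-loop-helix factors bind.
Dll3 (minus strand, chr7:28301736-28302035): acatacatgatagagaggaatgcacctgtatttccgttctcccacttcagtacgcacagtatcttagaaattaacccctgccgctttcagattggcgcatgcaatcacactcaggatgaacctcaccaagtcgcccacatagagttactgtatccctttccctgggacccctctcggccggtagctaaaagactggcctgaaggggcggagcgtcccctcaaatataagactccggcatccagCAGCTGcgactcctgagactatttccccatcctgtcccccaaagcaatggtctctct
Dll1 (minus strand, chr17:15376883-15377182): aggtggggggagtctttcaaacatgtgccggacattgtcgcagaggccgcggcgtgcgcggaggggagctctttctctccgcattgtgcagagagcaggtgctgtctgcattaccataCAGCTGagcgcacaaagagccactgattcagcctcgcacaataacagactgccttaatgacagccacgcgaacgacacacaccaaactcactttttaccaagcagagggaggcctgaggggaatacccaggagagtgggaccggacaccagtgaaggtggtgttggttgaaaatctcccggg
Notch1 (minus strand, chr2:26503773-26504072): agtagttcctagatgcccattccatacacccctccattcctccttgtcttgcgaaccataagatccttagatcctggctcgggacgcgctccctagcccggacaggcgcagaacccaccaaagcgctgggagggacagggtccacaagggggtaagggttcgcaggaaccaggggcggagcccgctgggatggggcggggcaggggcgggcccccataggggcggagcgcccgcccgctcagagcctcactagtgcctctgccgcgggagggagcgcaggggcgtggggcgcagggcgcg
CAGCTG, which reads the same on both strands, was found in 3 of the 9 windows, starting 7 bases before the start of Dll3, 132 before this start of Dll1 and 82 before that of Jag1, and 16.3% of 32851 promoter windows of this length hold it. TGGGAA, the core of an RBPJ site, was searched on both strands together with its complement TTCCCA and found in 0 of the 9 windows (25.6% of all windows), as was the E-box CACGTG (7.15% of all windows). All 9 windows are those of ligand and receptor genes, so no window of the target genes Hes1 and Hey1 was searched for any of these motifs. A letter match is a description of the window and not a measured binding site.

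Dll3, the inhibitory ligand (ENSMUSG00000003436, chromosome 7, 28293553 to 28302238, minus strand, mm10), spanned a wide range in sgKdm6a tumours. Its level was lowest at 1.81, with a median of 31.8 and a highest value of 103 CPM in sgKdm6a tumours, against 19.3, 36.2 and 58.7 CPM in sgControl tumours. The groups overlapped: sgKdm6a replicates 1 (6.69 CPM) and 3 (1.81 CPM) lay below every sgControl tumour and replicate 5 (103 CPM) above every one. The highest sgKdm6a tumour had 57.0 times the Dll3 level of the lowest, against 3.05 times among sgControl tumours. On the log2 scale the SD of Dll3 was 1.91 among sgKdm6a tumours, larger than that of 94.6% of the genes tested, and 0.63 among sgControl tumours, larger than that of 55.1%; the difference in spread was not tested. Dll3 averaged 4.33 ± 1.91 log2 CPM in sgKdm6a tumours (SD, n = 7) and 5.15 ± 0.63 log2 CPM in sgControl tumours (SD, n = 6). Its log2 fold change, -0.14 (SE 0.65), had an edgeR adjusted p of 0.968. The sign of the fold change turned without sgKdm6a replicate 1 (0.039) or 3 (0.070), or without sgControl replicate 1 (0.026), and the value was -0.72 without sgKdm6a replicate 5 and -1.93 (SE 1.61) with a term for Y-linked genes. The mean of the neuroendocrine markers was 8.18 log2 CPM in sgKdm6a replicate 1 and 7.09 log2 CPM, the lowest of all 13 tumours, in replicate 3, where Dll3 was also lowest. The markers did not move together in replicate 3. Chga (228 CPM), Calca (17.8 CPM), Resp18 (14.5 CPM) and Ddc (143 CPM) were at their lowest of all 13 tumours, whereas Insm1 (945 CPM) and Chgb (1043 CPM) were at their highest. Their part in the Dll3 level was not tested.

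**Figure D1:**
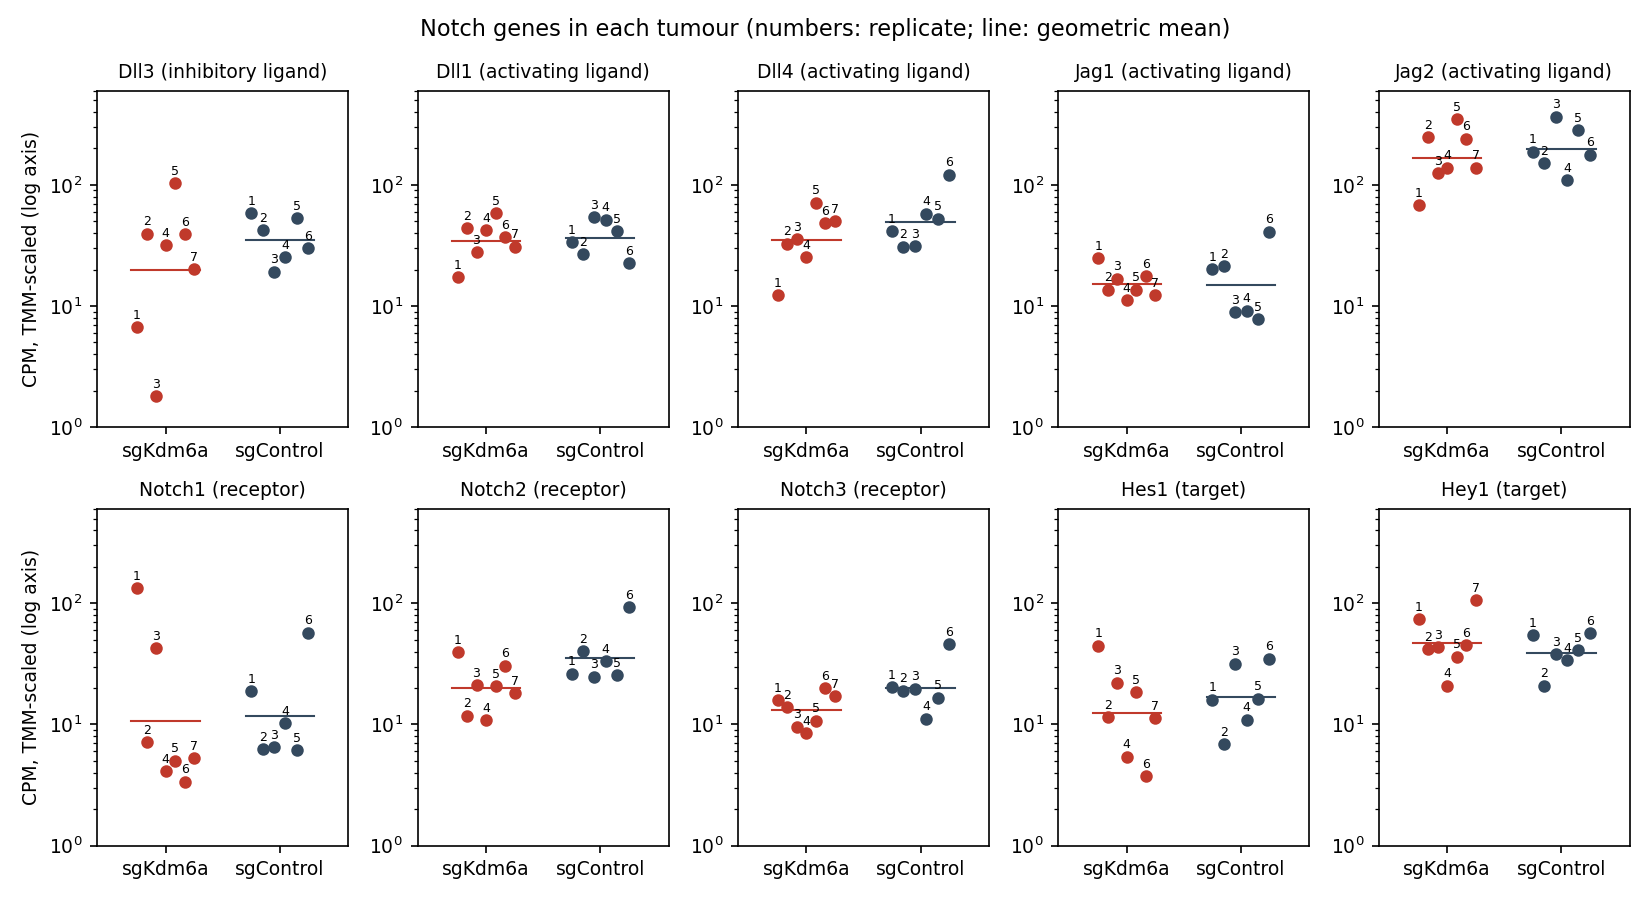
CPM of each Notch gene in each tumour on a log axis, with sgKdm6a tumours in red and sgControl tumours in dark blue, the replicate number above each point and a line at the geometric mean. Dll3 ran between 1.81 and 103 CPM and Notch1 between 3.38 and 134 CPM in sgKdm6a tumours, and in every panel the groups overlap.

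Among the activating ligands, Jag2 had the highest level in 13 of 13 tumours by CPM. Jag2, a Jagged-class ligand (ENSMUSG00000002799, chromosome 12, 112907819 to 112929776, minus strand), had 68.0, 139 and 348 CPM as lowest, median and highest levels in sgKdm6a tumours, against 109, 183 and 365 CPM in sgControl tumours. Dll1, a Delta-class ligand (ENSMUSG00000014773, chromosome 17, 15367354 to 15376872, minus strand), had 17.2, 36.8 and 58.4 CPM in sgKdm6a tumours, against 22.5, 37.6 and 53.8 CPM in sgControl tumours. The sgKdm6a tumour of replicate 1 was the lowest of all 13 for both ligands, and replicate 5 was the highest sgKdm6a tumour for both. Jag2 gave a log2 fold change of -0.19 (SE 0.36), at an edgeR adjusted p of 0.911, and Dll1 one of -0.06 (SE 0.28) with an edgeR adjusted p of 0.968.

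Dll4, the Delta-class ligand of sprouting vessels (ENSMUSG00000027314, chromosome 2, 119325784 to 119335962, plus strand), had 12.4, 35.6 and 71.4 CPM as lowest, median and highest levels in sgKdm6a tumours, against 31.0, 47.0 and 122 CPM in sgControl tumours. The highest value was that of sgControl replicate 6, and sgKdm6a replicates 1 and 4 lay below every sgControl tumour. For Dll4 the fitted log2 difference was -0.51 (SE 0.40), at an edgeR adjusted p of 0.719. It was -0.12 (SE 0.35) without sgControl replicate 6 and 0.14 (SE 0.50) with a term for the endothelial markers. With a term for the lower or higher series of title numbers it was -0.70 (SE 0.30), with an edgeR p of 0.0406 before and 0.484 after adjustment, and in that fit the p of Notch3 before adjustment was 0.0553. Jag1, the other Jagged-class ligand (ENSMUSG00000027276, chromosome 2, 137081456 to 137116644, minus strand), had 11.1, 13.7 and 25.0 CPM in sgKdm6a tumours, against 7.81, 14.7 and 40.9 CPM in sgControl tumours. For Jag1 the sgKdm6a tumours sat inside the range of the sgControl tumours, of which replicates 3, 4 and 5 were below all sgKdm6a tumours and replicate 6 above them. Jag1 gave a log2 fold change of -0.20 (SE 0.39), at an edgeR adjusted p of 0.911, and of 0.22 (SE 0.32) once sgControl replicate 6 was left out.

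Per length, by FPKM, Jag2 was the leading ligand in every tumour but sgControl replicate 6, where Dll4 led. Summed over the 4 activating ligands, the FPKM was 20.3 to 77.7 (median 39.3) in sgKdm6a and 37.5 to 69.7 (median 52.9) in sgControl tumours. Dll3 made up 1.71% to 30.0% (median 18.9%) of the summed ligand FPKM in sgKdm6a and 8.28% to 29.5% (median 19.4%) in sgControl tumours. Jag2 made up 40.2% to 50.4% in sgKdm6a and 29.5% to 64.3% in sgControl tumours. The lowest Dll3 share, 1.71%, was in sgKdm6a replicate 3, where the activating ligands summed to 33.8 FPKM. In sgKdm6a replicate 1 Dll3 (2.24 FPKM) and the activating ligands (20.3 FPKM) were both low, while the 3 receptors summed to 14.4 FPKM.

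**Figure D2:**
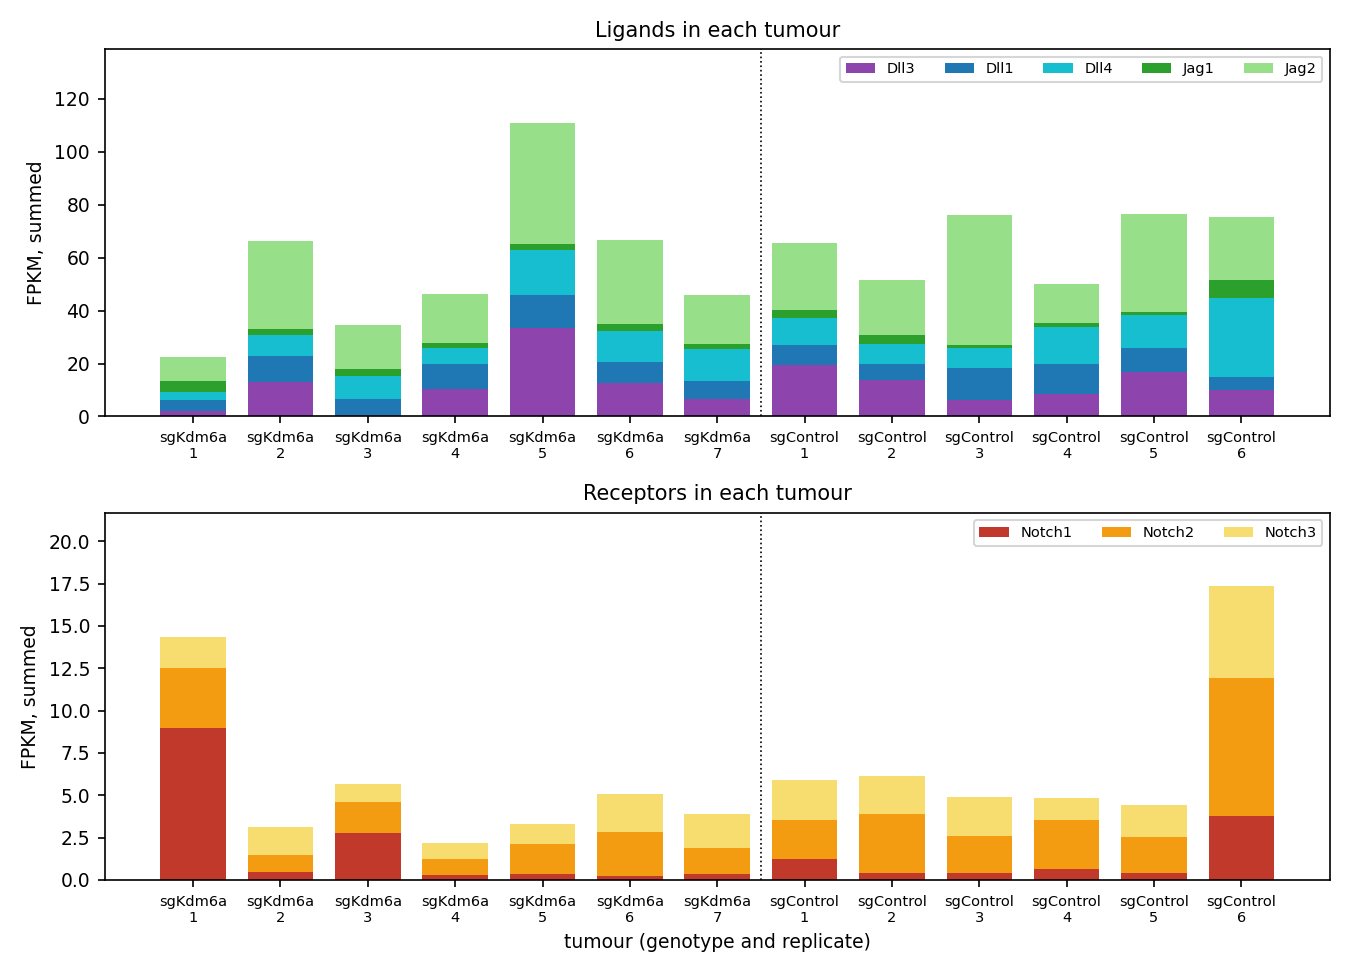
Deposited FPKM of the 5 ligands (upper panel) and the 3 receptors (lower panel), stacked for each tumour, sgKdm6a on the left of the dotted line and sgControl on the right. The receptors summed to 14.4 FPKM in sgKdm6a replicate 1 and 17.3 FPKM in sgControl replicate 6, and to 6.14 FPKM or less in the other tumours.

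Notch1 was the receptor with the most uneven levels. Notch1 (ENSMUSG00000026923, chromosome 2, 26457903 to 26516663, minus strand) was at 134 CPM in sgKdm6a replicate 1 and 42.5 CPM in replicate 3, and at 3.38 to 7.13 CPM in the other 5 sgKdm6a tumours, against 57.3 CPM in sgControl replicate 6, 18.8 CPM in replicate 1 and 6.15 to 10.2 CPM in the other 4. The 2 sgKdm6a tumours with the most Notch1 were the 2 with the least Dll3, whereas 4 sgKdm6a tumours lay below every sgControl tumour for Notch1. The sgControl tumours did not share this order. Replicate 1 had the most Dll3 of them (58.7 CPM) with 18.8 CPM of Notch1, and replicate 3 the least Dll3 (19.3 CPM) with 6.51 CPM of Notch1. In sgControl replicate 6, with the most Notch1 of them, Dll3 was at 30.1 CPM. The SD of Notch1 was 2.01 log2 CPM among sgKdm6a tumours, larger than that of 95.3% of the genes tested, and 1.27 log2 CPM among sgControl tumours, larger than that of 83.2%. The mean of the endothelial markers was 4.39 log2 CPM, the highest of the sgKdm6a tumours, in replicate 1 and 2.14 log2 CPM, the lowest of all 13 tumours, in replicate 3, against 7.30 log2 CPM in sgControl replicate 6. Fibroblast markers averaged 5.81 log2 CPM, the highest of the sgKdm6a tumours, in replicate 1 and 4.50 log2 CPM in replicate 3. The part of either list in the Notch1 levels of these tumours was not tested. Notch1 gave a log2 fold change of 0.72 (SE 0.96), at an edgeR adjusted p of 0.854. Leaving out sgKdm6a replicate 1 gave -0.64 (SE 0.79), and leaving out sgControl replicate 6 gave 1.59 (SE 0.98). The title numbers were split here into a lower series (sgKdm6a replicates 1 and 2, sgControl replicates 1 to 3) and a higher one (the other 8 tumours). The labels name no such series. In the lower series the titles of the sgControl tumours carry a prefix that those of the sgKdm6a tumours lack, so prefix and genotype cannot be told apart there. The Notch1 value was 2.74 (SE 1.15) in the lower series, where the sgKdm6a tumours had 134 and 7.13 CPM of Notch1. In the higher series it was -1.04 (SE 1.06), and the difference between the series was not tested.

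Notch2 and Notch3 had lower median levels in sgKdm6a tumours, with overlapping groups. Notch2 (ENSMUSG00000027878, chromosome 3, 98013527 to 98150361, plus strand) had 10.8, 20.8 and 39.7 CPM as lowest, median and highest levels in sgKdm6a tumours, against 24.8, 29.7 and 92.9 CPM in sgControl tumours. In 5 of 7 sgKdm6a tumours Notch2 was below every sgControl tumour, the exceptions being replicates 1 (39.7 CPM) and 6 (30.6 CPM). Notch3, a receptor known from mural cells (ENSMUSG00000038146, chromosome 17, 32120820 to 32166880, minus strand), had 8.43, 13.9 and 19.9 CPM in sgKdm6a tumours, against 11.2, 19.4 and 46.0 CPM in sgControl tumours. For Notch3, 3 of 7 sgKdm6a tumours were below every sgControl tumour, and sgControl replicates 1 and 6 were above every sgKdm6a tumour.

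Notch2 gave a log2 fold change of -0.89 (SE 0.38), with an edgeR p of 0.0363 before and 0.462 after adjustment. Notch3 had one of -0.70 (SE 0.32), with an edgeR p of 0.0474 before and 0.488 after adjustment. On mean log2 CPM, the two-sided exact permutation p over all 1716 splits was 0.0501 for Notch2 and 0.0699 for Notch3, where the smallest possible is 0.00117. When tumours of a shared title number were averaged first, the 4 sgKdm6a means of Notch2, 3.92 to 4.56 log2 CPM, all lay below the 6 sgControl values, 4.64 to 6.54 log2 CPM (two-sided exact permutation p = 0.00952, the smallest that 210 splits can give). Such a separation, lower in sgKdm6a, was found for 0.591% of all genes tested, and in either direction for 1.15%. The Notch2 log2 fold change in the lower title series alone was -0.25 (SE 0.56), against -1.34 (SE 0.47) in the higher series alone, and the difference was not tested. Both receptors were highest in sgControl replicate 6. Without that tumour edgeR gave -0.45 (SE 0.31, unadjusted p 0.165, adjusted p 0.899) for Notch2 and -0.35 (SE 0.25, unadjusted p 0.193, adjusted p 0.915) for Notch3. With a term for Y-linked genes edgeR gave -0.82 (SE 0.55, unadjusted p 0.160) for Notch2 and -0.54 (SE 0.54, unadjusted p 0.340) for Notch3. The unadjusted p was under 0.05 in 6 of the 13 fits that each left out 1 tumour for Notch2 and in 4 of 13 for Notch3. It was not for Notch2 without sgKdm6a replicate 2, 3, 4, 5 or 7 or sgControl replicate 2 or 6 (highest unadjusted p 0.165 in edgeR), nor for Notch3 without sgKdm6a replicates 1 to 5 or sgControl replicate 1, 2, 3 or 6 (highest 0.193).

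Levels of these receptors were read beside markers of vessels, mural cells and macrophages. Of the endothelial list 7 of 10 genes, of the pericyte and smooth muscle list 3 of 8 and of the macrophage list 8 of 8 had an unadjusted p under 0.05 with lower levels in sgKdm6a tumours (6.97% of all genes). Without sgControl replicate 6 this held for 5 of 10, 0 of 8 and 1 of 8 (2.79% of all genes). Other lists were lower at that p too: 5 of 7 fibroblast, 5 of 6 alveolar type 2 and 4 of 5 alveolar type 1 genes. Without sgControl replicate 6 these were 2 of 7, 2 of 6 and 2 of 5. In the club and ciliated, T and NK, and B lists 0 genes were lower at that p. The pericyte and smooth muscle markers summed to 141 to 247 CPM in sgKdm6a and 89.1 to 869 CPM in sgControl tumours, and the macrophage markers to 235 to 647 CPM in sgKdm6a and 435 to 16547 CPM in sgControl tumours; at their upper ends stands sgControl replicate 6. Lyz2 led the macrophage sum, and without it the other 7 summed to 161 to 314 CPM in sgKdm6a tumours, against 4563 CPM in sgControl replicate 6 and 131 to 348 CPM in the other sgControl tumours. No endothelial, pericyte or macrophage marker was at or under 3 counts in any tumour. With a term for the endothelial markers the log2 fold change was -0.05 (SE 0.34) for Notch2 and 0.016 (SE 0.29) for Notch3. For Notch1 it was 2.18, with an edgeR p of 0.0498 before and 0.734 after adjustment. A tissue term averaged the endothelial, fibroblast, macrophage and both alveolar lists. It gave -0.13 (SE 0.38) for Notch2, -0.08 (SE 0.32) for Notch3 and 2.16 for Notch1. The endothelial mean was 7.30 log2 CPM in sgControl replicate 6 and 4.39 log2 CPM or less in every other tumour. Its median was 3.19 log2 CPM in sgKdm6a and 4.21 log2 CPM in sgControl tumours. The part of vessels in these receptor levels was not tested.

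**Figure D3:**
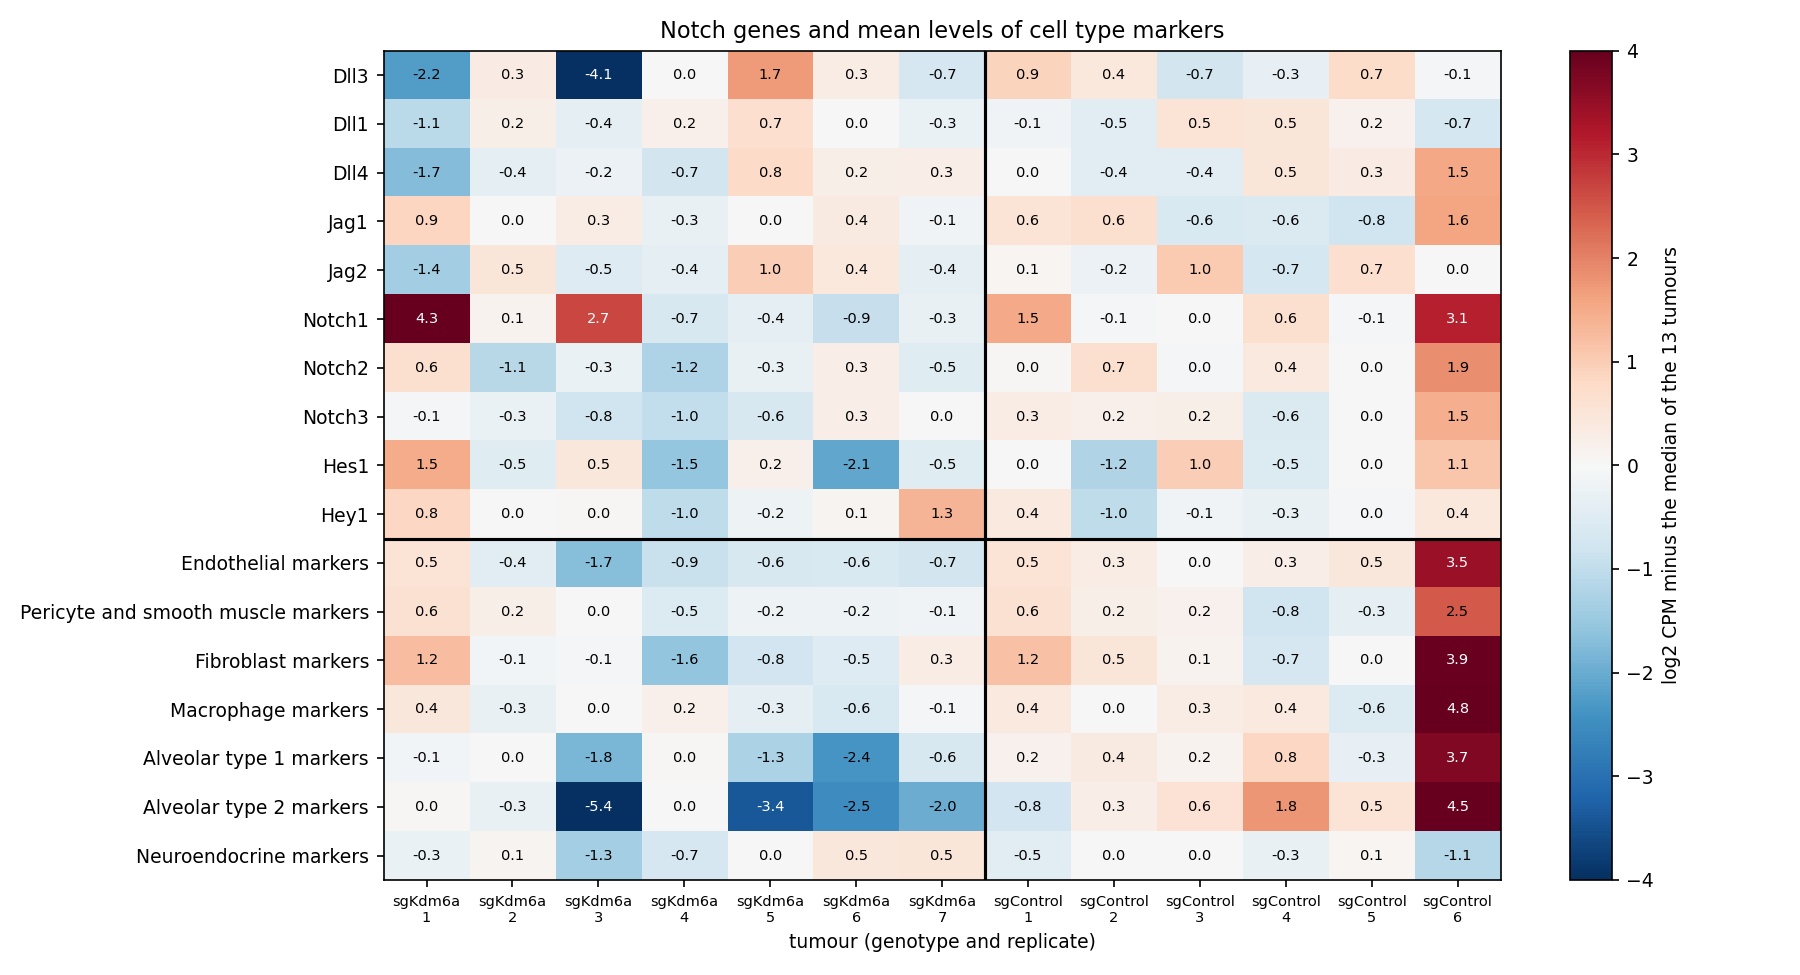
Level of each Notch gene (upper rows, log2 CPM) and mean level of marker lists (lower rows) in each tumour, given as the difference from the median of the 13 tumours, with colours saturating at 4. In sgKdm6a replicates 1 and 3 Notch1 is high where Dll3 is low, whereas in sgControl replicate 1 both lie above that median. In sgControl replicate 6 all 3 receptors are high together with the endothelial, mural, fibroblast, macrophage and alveolar markers.

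Neither target gene differed between the genotypes past the threshold. Hes1, the repressor through which Notch restrains neuroendocrine fate (ENSMUSG00000022528, chromosome 16, 30064384 to 30067796, plus strand), had 3.73, 11.5 and 44.7 CPM as lowest, median and highest levels in sgKdm6a tumours, against 6.85, 16.2 and 34.9 CPM in sgControl tumours. Its highest level in each genotype was in the tumour with the most Notch1, sgKdm6a replicate 1 and sgControl replicate 6, and its lowest, sgKdm6a replicate 6, was in the tumour with the least Notch1. The match was not complete, since sgControl replicate 3 had 31.8 CPM of Hes1 with 6.51 CPM of Notch1. Hey1, a target active in vessels (ENSMUSG00000040289, chromosome 3, 8663359 to 8667256, minus strand), had 20.9, 43.3 and 107 CPM in sgKdm6a tumours, against 20.9, 39.5 and 56.7 CPM in sgControl tumours. The highest Hey1 levels were in sgKdm6a replicates 7 (107 CPM) and 1 (74.0 CPM), both above every sgControl tumour, and replicate 7 had only 5.29 CPM of Notch1. Hes1 gave a log2 fold change of -0.22 (SE 0.55), at an edgeR adjusted p of 0.934, and Hey1 one of 0.37 (SE 0.34), at an edgeR adjusted p of 0.775. For Hes1 it was 0.028 (SE 0.57) without sgControl replicate 6 and -0.69 (SE 0.50) without sgKdm6a replicate 1.

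**Figure D4:**
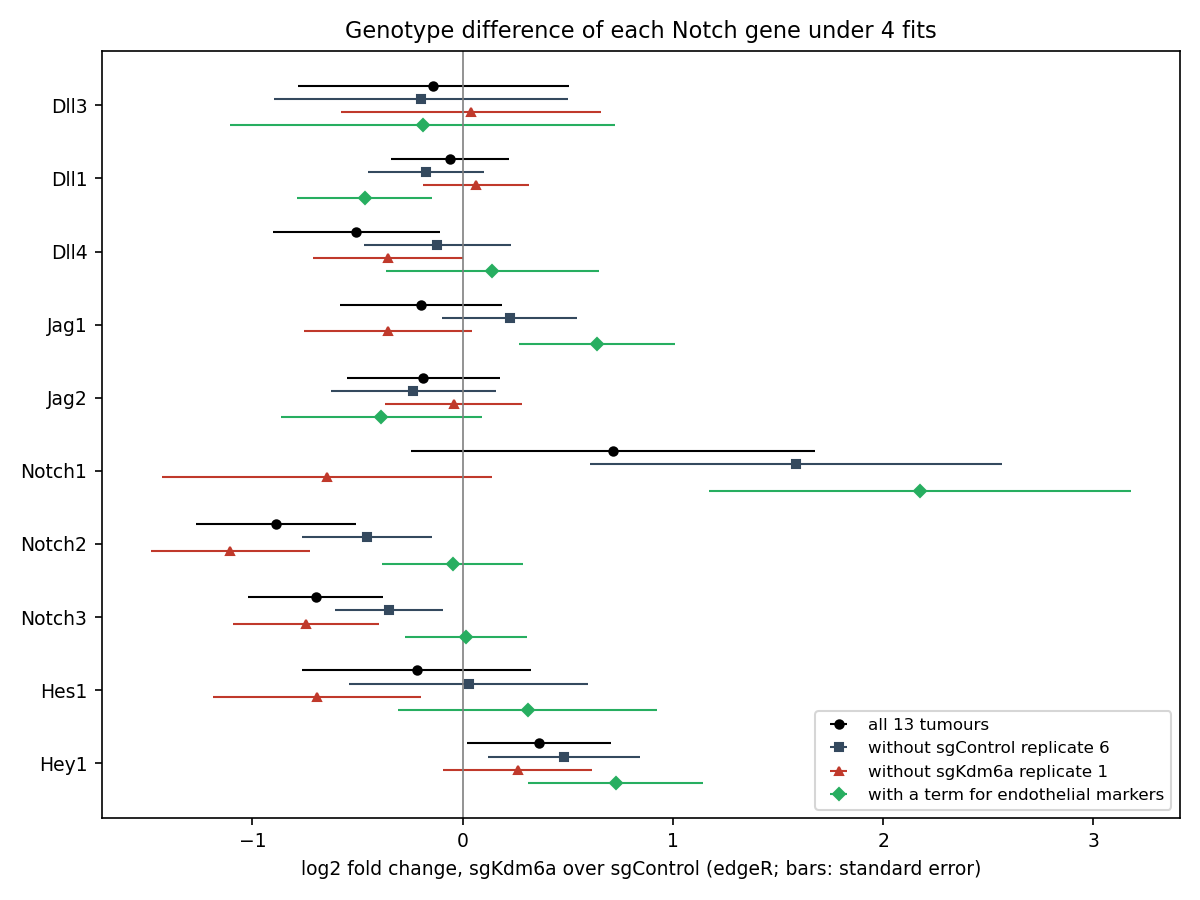
Log2 fold change of each Notch gene, sgKdm6a over sgControl, with its standard error, in 4 edgeR fits: all 13 tumours (black), without sgControl replicate 6 (dark blue), without sgKdm6a replicate 1 (red) and with a term for endothelial markers (green). Notch1 lies at 0.72 with all tumours and at -0.64 without sgKdm6a replicate 1, and Notch2 at -0.89 with all tumours and at -0.05 with the endothelial term.

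Ordered by median FPKM, the 10 genes ran Jag2, Hey1, Dll3, Dll4, Dll1, Hes1, Jag1, Notch2, Notch3 and Notch1 in sgKdm6a tumours, with medians between 18.6 and 0.347 FPKM. In sgControl tumours they ran Jag2, Dll3, Dll4, Hey1, Dll1, Hes1, Notch2, Jag1, Notch3 and Notch1, between 24.7 and 0.55 FPKM. The summed ligands exceeded the summed receptors in FPKM in 13 of 13 tumours, though Notch2 stood above the ligand Jag1 in 5 of 6 sgControl tumours. Most neighbours in these orders were not separated: Dll3 exceeded Dll4 in 4 of 7 sgKdm6a and 3 of 6 sgControl tumours. Neighbours in the same order in every tumour were Jag1 above Notch2 in 7 of 7 sgKdm6a tumours, and Jag2 above Dll3 and Notch3 above Notch1 in 6 of 6 sgControl tumours. Dll3 took places from 2 to 10 among sgKdm6a tumours and from 2 to 6 among sgControl tumours, and Notch1 took places from 4 to 10 among sgKdm6a tumours and was last in all sgControl tumours.

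Tumours that share a title number were compared gene by gene. The sgKdm6a pair of replicates 1 and 2 differed by more than 2-fold in 7 of the 10 genes, with Notch1 at 134 and 7.13 CPM, Dll3 at 6.69 and 39.6 CPM and Jag2 at 68.0 and 248 CPM. The pair of replicates 4 and 5 differed by more than 2-fold in 4 genes, among them Dll3 at 31.8 and 103 CPM and Hes1 at 5.41 and 18.5 CPM. The pair of replicates 6 and 7 did so in 2 genes, Hes1 at 3.73 and 11.3 CPM and Hey1 at 45.2 and 107 CPM. The share of all genes tested that differed by more than 2-fold was 15.6% to 28.5% in these 3 pairs and 15.7% to 35.3% in the 18 pairs of sgKdm6a tumours with no shared number, in which 1 to 9 of the 10 Notch genes did (median 3). Hes1 differed by 3.03-fold or more in all 3 pairs, and Notch3 by 1.28-fold or less. Dll3 differed by 1.93-fold or more in all 3 pairs, and Notch1 by more than 2-fold in 1 of them.

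Other genes of the pathway gave few differences. Of 41 listed, 40 were tested, 0 passed the adjusted p, and at an unadjusted p under 0.05 there was 1 higher (3.18% of all genes) and 2 lower (6.97% of all genes) in sgKdm6a tumours; their median log2 fold change was -0.08. Notch4, the receptor of endothelial cells, had 7.97, 11.3 and 18.7 CPM as lowest, median and highest levels in sgKdm6a tumours, against 11.2, 22.8 and 143 CPM in sgControl tumours. Its edgeR log2 fold change of -1.71 (SE 0.54) had a p of 0.00674 before and 0.419 after adjustment. It was -0.68 (SE 0.27) without sgControl replicate 6, 0.032 (SE 0.39) with the endothelial term and -1.07 (SE 0.95, edgeR unadjusted p 0.279) with the Y-linked term. The unadjusted edgeR p of Notch4 was under 0.05 in 13 of the 13 fits that each left out 1 tumour. It was highest, at 0.0251 (0.859 after adjustment), without sgControl replicate 6. Among the other 3 receptors and ligands 0 had an unadjusted p under 0.05; Dner, a neuronal non-canonical ligand, had a log2 fold change of 0.49 (SE 0.33). Of the 7 other targets and effectors 6 were tested and 1 had such a p: Rest, a repressor of neuronal genes, at -1.56 (SE 0.71, edgeR adjusted p = 0.483), which was -0.04 (SE 0.38) without sgControl replicate 6. Hey2, another target of the Hey class, had 0.74 (SE 0.52).

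In the nuclear complex, Spen, a co-repressor that works with RBPJ, was at 170 to 224 CPM in sgKdm6a and 113 to 186 CPM in sgControl tumours. Its edgeR log2 fold change of 0.36 (SE 0.14) had a p of 0.0224 before and 0.427 after adjustment. With the endothelial term it was 0.23 (SE 0.16), and with the Y-linked term 0.46 (SE 0.19, edgeR adjusted p 0.725). Its unadjusted edgeR p was under 0.05 in 13 of the 13 fits that each left out 1 tumour (highest 0.0497). Spen was the 1 gene of 7 there with an unadjusted p under 0.05, and Maml1, a co-activator, had -0.24 (SE 0.22). No such p was found among the 5 sugar transferases, where Poglut1 had -0.28 (SE 0.14), or the 4 ubiquitin ligases acting on ligands, where Mib2 had -0.28 (SE 0.15). The same held for the 9 cleavage proteases, where the presenilin gene Psen2 had -0.88 (SE 0.47), and for the 5 inhibitors and turnover genes, where Hes6, an antagonist of Hes1, had 0.59 (SE 0.36). With the endothelial term Poglut1 had -0.49 (SE 0.15), with an edgeR p of 0.0069 before and 0.668 after adjustment. Mib2 had -0.45 (SE 0.17) in that fit, with an edgeR p of 0.0235 before and 0.694 after adjustment.

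The genes most alike in pattern to each Notch gene were found by Spearman's rho of log2 CPM over the 13 tumours, among 14536 genes. These values are descriptions with no p, since tumours may share an animal and all genes share the libraries and their depth. For Dll3 they were Ccdc183 (0.92), Ush1c (0.85) and Zdhhc8 (0.84), and for Dll1 Copg2 (0.93), Ago1 (0.92) and Hnrnpf (0.91). Notch1 was most like Itga7 (0.94), Ccdc80 (0.93) and Sulf1 (0.93), Notch2 most like Phldb2 (0.90), Slc39a13 (0.90) and Trpc6 (0.88). Notch3 was most like Tradd (0.93), the pericyte channel gene Kcnj8 (0.93) and Igfbp3 (0.92). Hes1 was most like Dapk1 (0.93), Nek6 (0.92) and Galnt17 (0.89), and Hey1 most like Serping1 (0.92), Dkk3 (0.88) and Arl8a (0.87). Dll4 was most like Gabarapl1 (0.88), Tm7sf3 (0.88) and Rnf34 (0.85), Jag1 most like Dusp1 (0.93), Fkbp7 (0.92) and Crabp2 (0.91), and Jag2 most like Ttll10 (0.96), Ripply3 (0.92) and Lemd1 (0.90). By Pearson's r, several of these were far from the nearest: Ush1c ranked 190 and Zdhhc8 441 for Dll3, Itga7 293 for Notch1, Crabp2 377 for Jag1 and Ripply3 219 for Jag2. Without sgControl replicate 6 Ccdc183 had a rho of 0.97 with Dll3 and Kcnj8 0.91 with Notch3.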

How the data were processed

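RNA sequencing counts and FPKM of 13 tumours were used. The authors deposited raw gene counts, whole numbers not normalized, and FPKM, which equal the count over the gene length and over 1 constant per tumour within 1e-06 in all 13 tumours. STAR, DESeq2 and mm10 are named in the submitters' processing notes, and neither the counting program nor its annotation is given in the sources used here. Per the labels' protocols the libraries do not keep strand, so reads of exons shared with a gene on the other strand (for Notch1, Dll1, Dll4 and Notch3) cannot be told apart. The authors' group means of FPKM were not used.

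The main test was edgeR 4.0.16 in R 4.3.3: filterByExpr, TMM, robust dispersions, quasi-likelihood F test of genotype with no covariate, Benjamini-Hochberg adjustment over all genes tested with a threshold of 0.05. The standard error is the size of the log2 fold change over the square root of F. Log2 CPM used a prior count of 2. Exact permutation tests were two-sided. Replicates were numbered in accession order and pair no tumours. Total counts were 16835726 to 22910187. Genes named are the 10 Notch genes, up to 2 genes of smallest p per pathway group and the 3 genes most alike to each Notch gene. Heyl is named besides, for the fits with an endothelial or tissue term. The tissue term is the mean of the endothelial, fibroblast, macrophage and both alveolar lists. The genes and lists were chosen with earlier results of these data known. Scripts were tested on simulated data. Alternatives used DESeq2 1.42.0 and limma 3.58.1.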

Additional observations from a re-analysis of the deposited data

Results flagged for a closer look

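Among 20 sets of values (10 genes in each genotype, on log2 CPM), 1 had a tumour whose gap to its neighbour took an unusually large part of the range: Notch2 in sgControl replicate 6, at 92.9 CPM against 40.1 CPM in the next sgControl tumour, with a gap of 0.64 of the range. Chance alone gives about 1 such set in 20 on average, but the sets are not independent, since the 10 genes were read in the same tumours. The same tumour was also the highest sgControl tumour for Notch3, Dll4, Notch1, Jag1, Hes1 and Hey1. Its gaps there were 0.58, 0.55, 0.50, 0.39, 0.057 and 0.033 of the range, none of them flagged.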

How the results depend on the processing

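No paired analysis was possible because replicate numbers were given in accession order and no title number occurs in both genotypes. The alternatives were 30 other fits for counts and 32 for each fold change; that which leaves out sgControl replicate 6 and sgKdm6a replicate 1 together was chosen after seeing the data. Under all 30 fits 0 Notch genes passed the adjusted p. Genes passing in the whole table were 65 with DESeq2 and 0 in the other 29 fits. The number of the 10 genes at an unadjusted p under 0.05, which was 2, was 0 to 2 when 1 tumour was left out. It was 1 with quality weights, on log2(FPKM + 0.1), in the higher title series, with the endothelial term and without that pair of tumours; it was 0 on log2(FPKM + 1), with counts summed over title numbers, with a correlation within title numbers, in the lower title series, with the Y-linked term and with the tissue term. For the 41 other pathway genes, which had 3, it was 1 with a correlation within title numbers and with the Y-linked term, and 2 to 5 when 1 tumour was left out. The genes were not the same in every fit. With the endothelial term they were Poglut1 (edgeR unadjusted p 0.0069), Mib2 (0.0235) and Heyl, another target of the Hey class (0.0247). Notch4, Rest and Spen were not among them. With the tissue term they were Poglut1, Mib2, Heyl and Fbxw7.

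Hey1 and Notch2 kept their sign in all 32 alternatives. The signs of the others turned as follows, and the cause was not tested. Leaving out 1 tumour, the log2 fold change ran from -0.21 to 0.064 for Dll1, -0.72 to 0.070 for Dll3, -0.35 to 0.22 for Jag1, -0.41 to 0.037 for Jag2, -0.64 to 1.59 for Notch1 and -0.69 to 0.028 for Hes1. In the higher title series it was 0.020 for Dll1, 0.11 for Dll3, 0.052 for Jag2 and -1.04 for Notch1, against 2.74 for Notch1 in the lower series. In the lower series it was 0.19 for Jag1 and 0.61 for Hes1. With the tissue term it was 0.0073 for Dll4, 0.55 for Jag1 and 0.32 for Hes1, and with the endothelial term 0.14, 0.64 and 0.31 for these and 0.016 for Notch3. With the Y-linked term it was 0.19 for Jag1 and 0.24 for Hes1. Without the pair of tumours it was 0.035 for Dll4 and 0.073 for Jag1. With quality weights it was 0.26 for Jag1 and -0.29 for Notch1, with a correlation within title numbers 0.084 and -0.011, and on log2(FPKM + 0.1) 0.011 and -0.079. Differences of mean log2 CPM were 0.022 for Jag1 and -0.15 for Notch1 over tumours and 0.040 for Jag1 over title numbers. Depth limits little here, since every Notch gene had 35 counts or more in every tumour.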
